A study of Homo sapiens with 4 samples.

Results

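The genes described are those of interferon beta (IFNB1) and of the interferons lambda 1, 2 and 3 (IFNL1, IFNL2 and IFNL3), together with 2 genes of interferon regulatory factors, IRF1 and IRF2. They were taken by symbol, without regard to their level, and make up 6 of the 26255 genes measured. RNA came from MRC5 cells, an established line of fibroblasts from human fetal lung, labelled as wild type, with a time of 48 h in the sample titles. There were 2 control libraries, whose treatment label reads "no", and 2 libraries labelled as treated with miRs (microRNAs). Every treated and control library came from this 1 line. The labels name neither the microRNAs nor the transfection reagent, and the series title speaks of NC-miR, so the sources used here do not settle whether control cells were given a control RNA. No label states that replicates were separate cultures, and p-values below reflect no more than how these 4 libraries scatter, which may be technical scatter.

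Type I interferons such as interferon beta and type III interferons (the lambda family) are secreted proteins that cells make after sensing foreign RNA or DNA. Fibroblasts are a classical source of interferon beta. Type I interferons act on a receptor found on nearly all cells, and lambda interferons on a receptor made mainly by epithelial cells. Both receptors signal through Janus kinases and STAT proteins. IRF1 is a transcription factor that is itself induced by interferons and turns on antiviral and antigen-presentation genes, while IRF2 binds the same DNA element and is known as its antagonist at many of these genes.

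The stretches before the starts of these genes are shown first, because IRF and NF-kB binding elements are the textbook control elements of the interferon genes, and because IFNL2 and IFNL3 are so alike that their values bear on each other. A promoter was found by symbol for 5 of the 6 genes in the RefSeq table for build GRCh38.p14, and there was no entry for IRF2. The 250 bases before each start were searched on both strands for 4 motifs. The IRF element was GAAA, any 2 bases, GAAA. The IRF half-site, chosen after the data were examined, was AANNGAAA and lies within each IRF element. The gamma-activated site, an element of interferon-responsive genes, was TTCNNNGAA, and the NF-kB consensus was searched under its usual ambiguity code. Capitals mark matches to any of these and, in IFNL2 and IFNL3, the base at which the windows differ. Each stretch runs 5′ to 3′ on the strand of its gene.
IFNB1, chr9:21077989-21078170, minus strand: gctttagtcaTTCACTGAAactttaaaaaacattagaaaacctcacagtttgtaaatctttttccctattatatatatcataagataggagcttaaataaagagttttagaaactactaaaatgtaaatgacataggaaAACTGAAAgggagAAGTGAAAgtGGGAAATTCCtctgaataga
IFNL1, chr19:39296183-39296350, plus strand: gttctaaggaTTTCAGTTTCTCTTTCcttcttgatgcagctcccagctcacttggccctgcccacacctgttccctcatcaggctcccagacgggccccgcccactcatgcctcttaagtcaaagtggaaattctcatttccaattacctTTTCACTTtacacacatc
IFNL2, chr19:39268166-39268343, plus strand: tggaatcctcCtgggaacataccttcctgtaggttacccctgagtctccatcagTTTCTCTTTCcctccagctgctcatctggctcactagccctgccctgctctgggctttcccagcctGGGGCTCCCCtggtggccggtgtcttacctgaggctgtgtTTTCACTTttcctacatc
IFNL3, chr19:39245303-39245480, minus strand: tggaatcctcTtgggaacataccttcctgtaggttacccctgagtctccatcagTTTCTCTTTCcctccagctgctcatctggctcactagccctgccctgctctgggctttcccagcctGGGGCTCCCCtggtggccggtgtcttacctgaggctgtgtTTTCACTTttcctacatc
IRF1, chr5:132490804-132490907, minus strand: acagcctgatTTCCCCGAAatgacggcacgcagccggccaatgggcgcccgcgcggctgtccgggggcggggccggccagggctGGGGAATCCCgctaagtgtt

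Positions are counted back from the annotated start, so that −1 is the base before it. IFNB1 held IRF half-sites beginning at −89 and −76, followed by an NF-kB match beginning at −66, and a gamma-activated site beginning at −218. IFNL1 held 2 overlapping IRF elements, beginning at −214 and −208, and a further half-site at −74. IFNL2 and IFNL3 each held 1 IRF element beginning at −176, a further half-site at −70 and 1 NF-kB match at −110. Their 250-base windows were identical at 249 positions and differed at C31T, counted from 1 at the 5′ end of the window, with the base of IFNL2 first. A second IFNL3 start in RefSeq held no match to any motif searched. The IFNL3 start shown was taken because its window lines up with that of IFNL2, so this likeness follows in part from the choice. IRF1 held a gamma-activated site beginning at −124 and an NF-kB match at −50, and no match to either IRF motif. Of 35116 promoters of the same length, 3.02% held the IRF element, 20.3% the half-site, 6.57% the gamma-activated site and 9.96% the NF-kB consensus. A match describes letters and is not a measured site of binding.

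**Figure D1:**
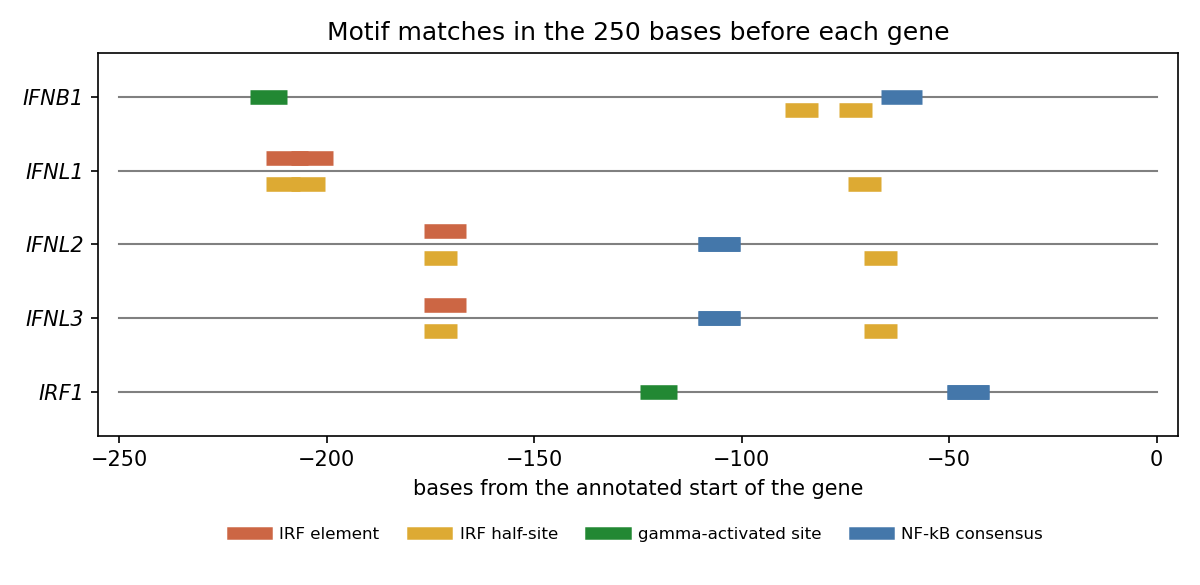
Motif matches in the 250 bases before the annotated start of 5 genes, with the distance from the start in bases on the x axis and 1 line per gene. Coloured bars are matches on either strand. The matches of IFNL2 and of the IFNL3 start shown lie at the same distances, while IFNB1 has its half-sites and NF-kB match between −89 and −57.

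Levels are FPKM, a fragment number divided by transcript length and library size. The number of fragments per library is not given, but values of low genes with 1 annotated transcript fell on regular steps, from which the FPKM worth of 1 fragment could be estimated. These steps put the worth of 1 fragment on a 1-kilobase transcript at 0.082 (control replicate 1), 0.0865 (control replicate 2), 0.074 (miRs replicate 1) and 0.0845 FPKM (miRs replicate 2). Between 64.3% and 68.1% of low values lay within 0.1 of a whole number of fragments, where an even spread gives 20%. The steps were fitted to largely the same values, so this share is no independent check of them. The fragment numbers below come from these steps and from GENCODE 29 transcript lengths, and are estimates. IFNL3 has 2 transcripts there, and the length of 1 of them was used. All 10 fibroblast markers of a list (collagens COL1A1 and COL1A2, vimentin and others) were expressed, with summed levels from 6702 to 11558 FPKM per library. In 5 of the 10 both miRs libraries were below both controls, a pattern that 30.0% of all tested genes showed, and 0 passed the limma test described below, which 0.245% of all tested genes passed, with 5 at an unadjusted p under 0.05. VIM gave 3697, 3170, 2598 and 2249 FPKM and the matrix protein decorin (DCN) 963, 1223, 352 and 419 FPKM, in the library order just used. COL1A1 gave 2337, 2521, 1910 and 4742 FPKM and COL1A2 gave 1982, 2155, 1240 and 3111 FPKM, in the same order. In 3 of the 10 markers, COL1A1 and COL1A2 among them, miRs replicate 2 was above both controls. From here on, 4 values in a row are FPKM in that order, control first and miRs last.

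IFNB1 was listed at 0 FPKM in both control libraries, at 9.95 FPKM in the first miRs library and at 0.660 FPKM in the second. Both miRs libraries thus lay above both controls, and the first lay 15.1 times above the second. An estimated 88.6 fragments lay behind the higher value and 5.15 behind the lower one, so the lower value rests on very few fragments. On the log2(FPKM + 1) scale the difference between miRs and control was 2.09 ± 0.92 (SE), and limma gave an adjusted p of 0.253 over all 11860 genes tested, which did not pass the threshold of 0.05. No fold is given against controls listed at 0. RNA from a bulk culture cannot tell few cells with much IFNB1 RNA from many cells with little.

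The lambda interferon genes were seen in 1 library alone. IFNL1 was at 9.48 FPKM in miRs replicate 1 and listed at 0 in both controls and in miRs replicate 2. Its log2 difference was 1.69 ± 1.13 (SE), and limma gave an adjusted p of 0.408. IFNL2 was at 0.833 FPKM and IFNL3 at 0.563 FPKM in miRs replicate 1, and both were listed at 0 in the other 3 libraries. The groups overlap for all 3 genes, because miRs replicate 2 equals the controls. IFNL2 and IFNL3 had means below 1 FPKM over the libraries and were not tested, and with no minimum limma gave an adjusted p of 0.515 and 0.517.

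Within miRs replicate 1, IFNL1 supplied 87.2% of the FPKM of the 3 lambda genes and stood at nearly the level of IFNB1, which was 1.05 times higher. FPKM is a level per length, which allows this comparison between genes. IFNL1 was 11.4 times above IFNL2 and 16.8 times above IFNL3. The estimated fragments were 84.2 for IFNL1, 6.04 for IFNL2 and 4.07 for IFNL3. The order of IFNL2 and IFNL3 cannot be read from so few. Of the 50-base windows of the IFNL2 transcript in GENCODE 29, 32.0% also occur in IFNL3, as do 5.17% of its 100-base windows, so fragments may have been assigned to either gene. No 50-base window of IFNL1 occurs in IFNL2 or IFNL3.

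**Figure D2:**
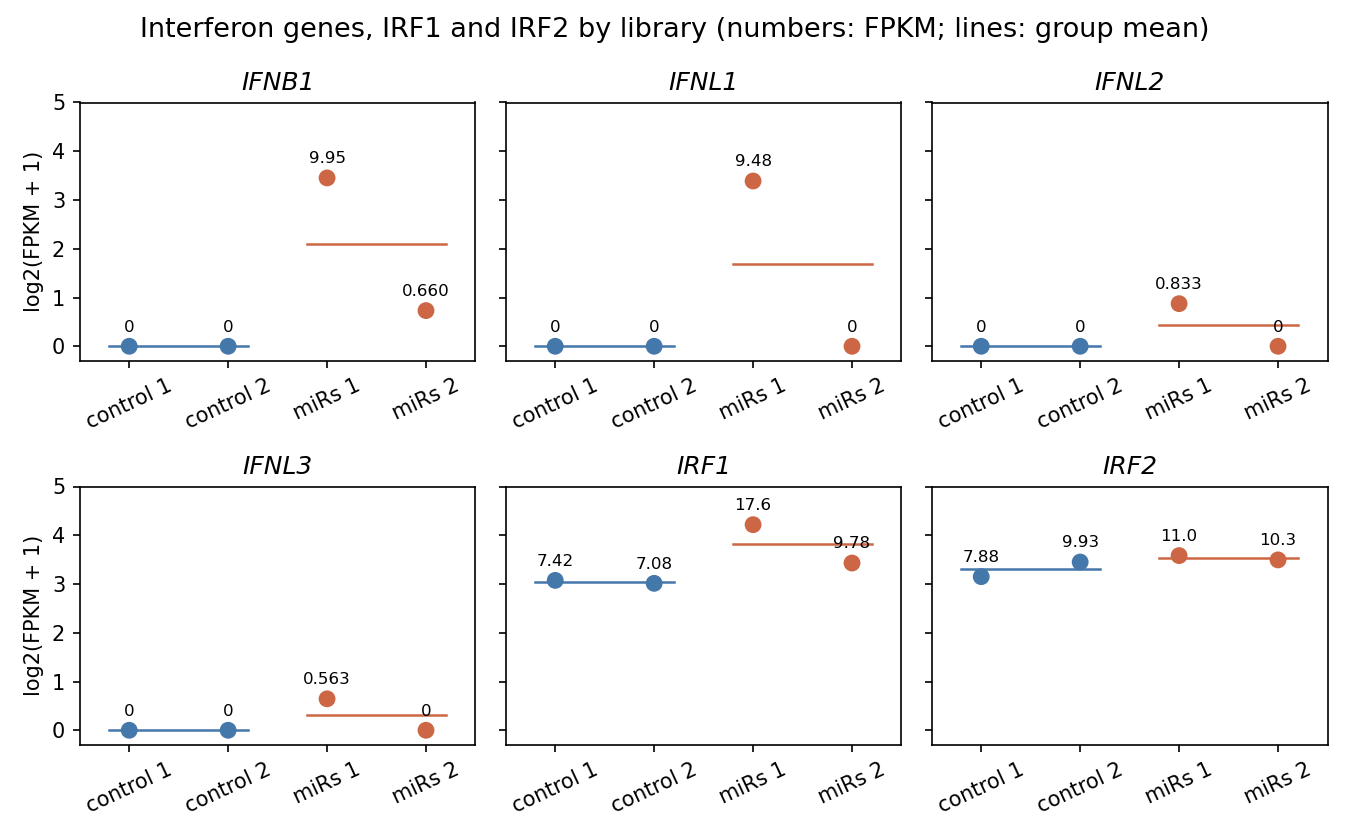
Level of each of the 6 genes in each library as log2(FPKM + 1), with the FPKM printed at each point and a line at the mean of each group of 2 libraries. The 4 interferon genes are listed at 0 in both controls, and the 3 lambda genes are above 0 in miRs replicate 1 alone. IRF1 is highest in miRs replicate 1 and IRF2 varies little.

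IRF1 was detected throughout, with 7.42, 7.08, 17.6 and 9.78 FPKM. The groups did not overlap, and miRs replicate 1 lay well apart from the other 3 libraries. Control averaged 7.25 ± 0.245 FPKM and miRs averaged 13.7 ± 5.53 FPKM (SD, n = 2 per group), and the means had a ratio of 1.89. The log2 difference of 0.78 ± 0.29 (SE) had an unadjusted p of 0.0461 and an adjusted p of 0.200 in limma, and did not pass. Against the mean of the controls, IRF1 was 2.43 times as high in the first miRs library and 1.35 times as high in the second. C5orf56, a transcript on the opposite strand that shares 1716 exonic bases with IRF1 in GENCODE 29, gave 1.36, 3.43, 12.0 and 5.31 FPKM. The strand setting of the counting is not given in the sources used here, and reads of the 2 genes may not be separated. The part of C5orf56 in the IRF1 values was not tested.

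IRF2 gave 7.88, 9.93, 11.0 and 10.3 FPKM. Both miRs libraries were above both controls, but the gap from miRs replicate 2 to the higher control was smaller than the gap between the controls. The log2 difference was 0.24 ± 0.16 (SE), for which limma gave an adjusted p of 0.408. Control averaged 8.91 ± 1.45 FPKM and miRs averaged 10.6 ± 0.502 FPKM (SD, n = 2 per group).

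The ratio of IRF1 to IRF2 within a library, which does not depend on how libraries were scaled, was 0.942 and 0.712 in the controls and 1.60 and 0.952 in the miRs libraries, in replicate order. RNA of IRF1 exceeded that of its antagonist IRF2 in miRs replicate 1 alone, and the ratio in miRs replicate 2 was close to that in control replicate 1. On the log2(FPKM + 1) scale the mean difference of IRF1 from IRF2 was 0.54 higher in miRs, and the exact permutation test gave p = 0.33 (two-sided, n = 2 each), the smallest value that 2 against 2 libraries allow. The order of levels in control was IRF2, IRF1, then the 4 interferon genes at 0, with IRF1 and IRF2 closer together than the 2 control values of IRF2. In miRs replicate 1 the order was IRF1, IRF2, IFNB1, IFNL1, IFNL2 and IFNL3.

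Of the 4 genes that reached the minimum for testing (IFNB1, IFNL1, IRF1 and IRF2), 0 passed an adjusted p of 0.05 in limma and 1, IRF1, had an unadjusted p under 0.05. Among all 11860 tested genes 29 passed, or 0.245%, and 2872 had an unadjusted p under 0.05. Counts of genes that passed or had an unadjusted p under 0.05 in any list here are to be read beside these numbers. The median log2 difference of all tested genes was −0.0020. Both miRs libraries lay above both controls for IFNB1, IRF1 and IRF2, a pattern that 29.5% of all tested genes showed, while 30.0% lay below. IFNB1 and IFNL1 reached the minimum only through miRs replicate 1, so their presence among the tested genes carries no weight. With miRs replicate 2 left out, the log2 difference was 3.45 for IFNB1, 3.39 for IFNL1 and 1.17 for IRF1. With miRs replicate 1 left out it was 0.73 for IFNB1, 0 for IFNL1 and 0.39 for IRF1. Each of these fits has a lone miRs library, which gives no spread of its own, so only the differences are given.

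Few genes shared the pattern of IFNL1. At least 1 FPKM in miRs replicate 1 and 0 in the other 3 libraries was found for 23 genes, against 10 such genes for miRs replicate 2 alone, 6 for control replicate 1 and 8 for control replicate 2. At 5 FPKM or more there were 13 genes with the pattern of IFNL1, and the other 12 were genes of small nucleolar RNAs or microRNAs, which are so short that a single fragment is worth many FPKM. The gene nearest to IFNL1 in pattern, by Euclidean distance of centred log2(FPKM + 1) over the 4 libraries, was one of these, SNORA65 (distance 0.00277).

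The genes nearest to IFNB1 by the same measure were CFB, the complement factor B of the alternative pathway (distance 0.202), HRASLS2, a phospholipase (0.214), TNFSF13B, the B-cell survival factor BAFF (0.247), CEACAM1, an adhesion receptor (0.274), and the keratin KRT17 (0.314). CFB gave 2.13, 1.85, 37.0 and 4.14 FPKM, and TNFSF13B gave 0.0665, 0.107, 12.5 and 1.19 FPKM. The genes nearest to IRF1 were ULBP3, a ligand of the NKG2D receptor of killer cells, with 5.70, 5.50, 13.8 and 7.75 FPKM (distance 0.0221), ZNF267, CD276, ORC1 and KLHL3. The nearest genes to IRF2 were C11orf1, SETDB1, SLC25A36, ZNF841 and WARS2. Those nearest to IFNL2 were RNF114, CCDC86, PPA1, XRN1 and GRINA, and those nearest to IFNL3 were ACOT1, NIP7, PTPRA, C3orf38 and C1QBP, all of them detected in every library, since the distance ignores the level. SNORA5C, SNORA14B, SNORA5A and SNORA68 followed SNORA65 for IFNL1. Distances over 4 libraries describe likeness of these values and nothing about control of the genes.

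Other interferon genes were at or near 0. Of 18 on the list (13 of interferon alpha, IFNE, IFNG, IFNK, IFNW1 and IFNL4), 15 were listed at 0 in all 4 libraries and 0 reached the minimum. IFNE, an interferon best known from the reproductive tract, gave 0.323, 0.339, 0.929 and 0.464 FPKM. These values correspond to about 5, 5, 16 and 7 fragments, so that IFNE too was highest in miRs replicate 1. IFNA1 had 0.124 FPKM in control replicate 1 and 0 elsewhere, and IFNW1 was at 0.0563 FPKM in miRs replicate 1 alone.

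Of the markers of plasmacytoid dendritic cells, known as makers of interferon alpha, CLEC4C, LILRA4 and IL3RA were listed at 0 in all 4 libraries, and the 6 markers on that list summed to at most 0.0941 FPKM in any library. Of 10 leukocyte markers 4 were listed at 0 throughout, and the pan-leukocyte gene PTPRC was at 0.0182 FPKM in control replicate 2, 0.0178 FPKM in miRs replicate 2 and 0 in the others. The leukocyte list summed to 53.8, 57.7, 131 and 42.1 FPKM, nearly all of it CD68, a lysosomal protein that fibroblasts also make. The 5 endothelial markers summed to 13.6, 11.0, 13.8 and 5.59 FPKM, nearly all of it TEK. The epithelial list summed to 28.3, 30.8, 182 and 261 FPKM, nearly all of it the keratins KRT8, KRT18 and KRT19. On the same list, CDH1 was at 0.0356 FPKM in control replicate 1 and 0 elsewhere, and KRT5 was listed at 0 in all 4 libraries. Its KRT18 (17.7, 19.4, 137 and 194 FPKM) and KRT19 (6.15, 6.05, 29.7 and 35.5 FPKM) rose, with an adjusted p of 0.0354 in limma for each. The part of the epithelial list in the interferon values was not tested.

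Among the machinery that senses RNA and induces interferon genes, 12 genes were listed and all were tested. TRIM25, the ubiquitin ligase that activates RIG-I, rose, with 17.1, 17.6, 60.2 and 55.4 FPKM (log2 difference 1.68, adjusted p = 0.0430 in limma). It was the 1 gene of this list called, where 0.245% of all tested genes were. In 7 of the 12 both miRs libraries were above both controls (29.5% of all tested genes), in 1 both were below (30.0% of all), and the median log2 difference was 0.88. Among the 7, IFIH1 and TLR3 were below 1 FPKM in both controls and reached the minimum only through the miRs libraries. The direction of these genes carries no weight. IFIH1, the sensor MDA5 of long double-stranded RNA, gave 0.483, 0.584, 86.5 and 12.5 FPKM, and DDX58, the sensor RIG-I, gave 3.21, 3.16, 135 and 25.7 FPKM. EIF2AK2, the kinase PKR, gave 9.12, 9.54, 42.7 and 25.5 FPKM. The adjusted p was 0.0932 for IFIH1, 0.0940 for DDX58 and 0.0769 for EIF2AK2 in limma.

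Of 9 genes listed and tested for factors that assemble on the IFNB1 enhancer, both miRs libraries were above both controls in 5 (29.5% of all tested genes) and below in 1 (30.0% of all). In this list 0 passed in limma (0.245% of all tested genes), with 3 at an unadjusted p under 0.05 (2872 of all 11860). The median log2 difference was 0.31. RELA, the NF-kB subunit p65, was the one below, with 35.5, 36.1, 15.4 and 12.0 FPKM (log2 difference −1.34, adjusted p = 0.0632 in limma). JUN, a subunit of AP-1, gave 47.4, 43.3, 71.2 and 61.9 FPKM (adjusted p = 0.124), and the architectural protein HMGA1 gave 842, 672, 1008 and 892 FPKM (adjusted p = 0.302). IRF3, which is present before infection and starts IFNB1 transcription once phosphorylated, gave 26.0, 28.9, 36.6 and 31.8 FPKM (adjusted p = 0.275).

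In the rest of the IRF family, IRF7 and IRF9 stood far above control in both miRs libraries. IRF7, the factor that amplifies interferon production, gave 1.25, 2.75, 59.4 and 31.9 FPKM (log2 difference 3.94, adjusted p = 0.0632 in limma). IRF9, the DNA-binding subunit of the complex ISGF3, gave 15.9, 22.1, 58.6 and 45.8 FPKM (log2 difference 1.42, adjusted p = 0.0769 in limma). IRF5 and IRF8 were listed at 0 throughout. Of the 7 other IRF genes 3 were tested, both miRs libraries were above both controls in all 3, which 29.5% of all genes tested showed, 2 of them had an unadjusted p under 0.05 and 0 passed in limma, and the median log2 difference was 1.42. The 3 genes of IRF2-binding proteins showed no common direction. IRF2BP1 gave 8.52, 8.44, 5.41 and 6.96 FPKM (adjusted p = 0.220 in limma), IRF2BP2 gave 15.2, 13.4, 16.4 and 12.5 FPKM, and IRF2BPL gave 16.7, 18.6, 12.5 and 25.3 FPKM.

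**Figure D3:**
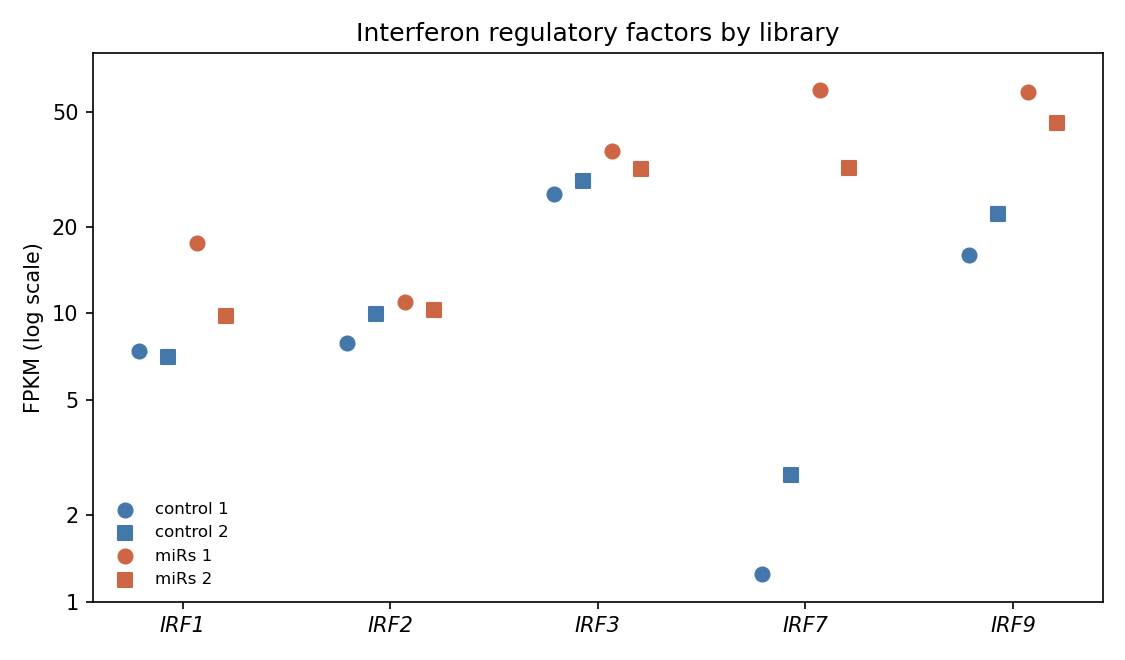
FPKM on a log axis of the 5 interferon regulatory factor genes that reached the minimum, with circles for replicate 1 and squares for replicate 2 of control (blue) and miRs (orange). IRF7 shows the widest gap between groups, from 1.25 and 2.75 to 59.4 and 31.9 FPKM, and IRF2 the narrowest.

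RNA of IFNLR1, the specific chain of the receptor of lambda interferons, was nearly absent. IFNLR1 was at 0.0204 FPKM in control replicate 2, 0.0349 FPKM in miRs replicate 1 and 0 in the other 2 libraries. IL10RB, the shared chain of that receptor, gave 16.8, 16.8, 18 and 15.2 FPKM. The type I receptor chain IFNAR1 gave 7.37, 6.71, 4.72 and 3.42 FPKM (adjusted p = 0.134 in limma). Its partner IFNAR2 gave 8.32, 8.35, 10.9 and 7.14 FPKM. The gamma-interferon receptor chains gave 13.36, 11.1, 18.8 and 13.45 FPKM (IFNGR1) and 32.8, 28.6, 31.7 and 20.3 FPKM (IFNGR2). Of 5 receptor genes tested, both miRs libraries were above both controls in 1, IFNGR1, and below in 1, IFNAR1. These patterns were shown by 29.5% and 30.0% of all tested genes. Of the 5, 0 passed in limma (0.245% of all tested genes). At an unadjusted p under 0.05 there was 1 (2872 of all 11860), and the median log2 difference was −0.02. Downstream, STAT2 gave 22.4, 28.8, 74.6 and 49.8 FPKM (adjusted p = 0.0940). STAT3, which acts below interleukin 6, gave 32.8, 32.3, 38.0 and 41.0 FPKM. The kinase JAK1 gave 47.3, 45.5, 30.6 and 31.2 FPKM (adjusted p = 0.0954). Of the 6 Janus kinase and STAT genes 3 had both miRs libraries above both controls and 2 below, beside 29.5% and 30.0% of all tested genes, and 0 passed in limma, with 3 at an unadjusted p under 0.05 and a median log2 difference of 0.34.

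Among 8 genes of negative feedback, both miRs libraries were above both controls in 4 and below in 2, beside 29.5% and 30.0% of all tested genes, and 0 passed in limma, with 4 at an unadjusted p under 0.05 and a median log2 difference of 0.23. USP18, which removes ISG15 and blocks the type I receptor, gave 5.82, 6.45, 106 and 24.7 FPKM (adjusted p = 0.111). SOCS1, an inhibitor of Janus kinases, gave 7.86, 11.6, 22.0 and 33.2 FPKM, and unlike IFNB1 and IRF1 its higher value was in miRs replicate 2. PTPN11, the phosphatase SHP2, gave 50.6, 45.8, 27.1 and 36.3 FPKM (adjusted p = 0.156), PTPN1 gave 34.9, 31.1, 29.8 and 28.4 FPKM, and SOCS3 gave 19.95, 20.3, 17.1 and 25.2 FPKM.

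Genes known as targets of IRF1 or of gamma interferon were mostly higher in miRs. Of 20 listed, 15 were tested. Both miRs libraries were above both controls in 11 of the 15 and below in 0, against the 29.5% and 30.0% of all tested genes. Among the 11, GBP4, CXCL10 and CXCL11 were below 1 FPKM in both controls and reached the minimum only through the miRs libraries. The direction of these genes carries no weight. In this list 0 passed in limma (0.245% of all tested genes), with 6 at an unadjusted p under 0.05 (2872 of all 11860). The median log2 difference was 1.49. TAP1, the peptide transporter of antigen presentation, gave 17.9, 16.6, 179 and 41.0 FPKM (adjusted p = 0.160), and the immunoproteasome subunit PSMB8 gave 27.4, 33.2, 153 and 48.6 FPKM (adjusted p = 0.204). CXCL10, a chemokine for T cells, gave 0.243, 0.0851, 264 and 10.3 FPKM (adjusted p = 0.134), and CXCL11, a ligand of the same receptor, gave 0, 0, 176 and 2.71 FPKM. In the 12 genes known as ISGF3 targets both miRs libraries were above both controls, which 29.5% of all genes tested showed. Of the 12, MX2, OAS1, OAS2, RSAD2 and IFI44L were below 1 FPKM in both controls. These genes reached the minimum only through the miRs libraries, so their direction carries no weight. The median log2 difference of the 12 was 5.79, and 0 passed in limma, with 12 at an unadjusted p under 0.05. The ubiquitin-like ISG15 gave 33.8, 37.5, 3648 and 726 FPKM, IFI6 gave 11.5, 16.9, 2750 and 580 FPKM, the antiviral GTPase MX1 gave 0.920, 1.35, 795 and 190 FPKM, and the RNA-binding IFIT1 gave 1.55, 1.84, 555 and 103 FPKM. Both lists were chosen with earlier results of these data known.

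Interferon genes and their targets were higher in miRs replicate 1 than in miRs replicate 2, by unlike amounts. Dividing the first miRs library by the second gave 15.1 for IFNB1, 1.80 for IRF1 and 1.07 for IRF2, and the median of this ratio over tested genes above 0 in both was 1.01. A ratio at least as large as that of IFNB1 was found in 14 of 11804 genes (0.119%), and at least that of IRF1 in 6.28%. The 14 include IFNB1 itself, CXCL11 at 64.7, RSAD2, an antiviral enzyme, at 35.3, the chemokine CCL5 at 28.9, CXCL10 at 25.7 and the exonuclease ISG20 at 19.0. Several of the 14, IFNB1 and CXCL11 among them, reached the minimum only through miRs replicate 1. An estimated 5.15 fragments lay behind IFNB1 in miRs replicate 2. The share of 0.119% is therefore no measure of how rare such a gap is. The ISGF3 targets had a median ratio of 5.28 (range 4.18 to 35.3), the IRF1 or gamma-interferon targets 3.17 (range 1.59 to 64.7), and the interferon receptors 1.40. These ratios compare single libraries that carry the same label and have no replicate check.

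**Figure D4:**
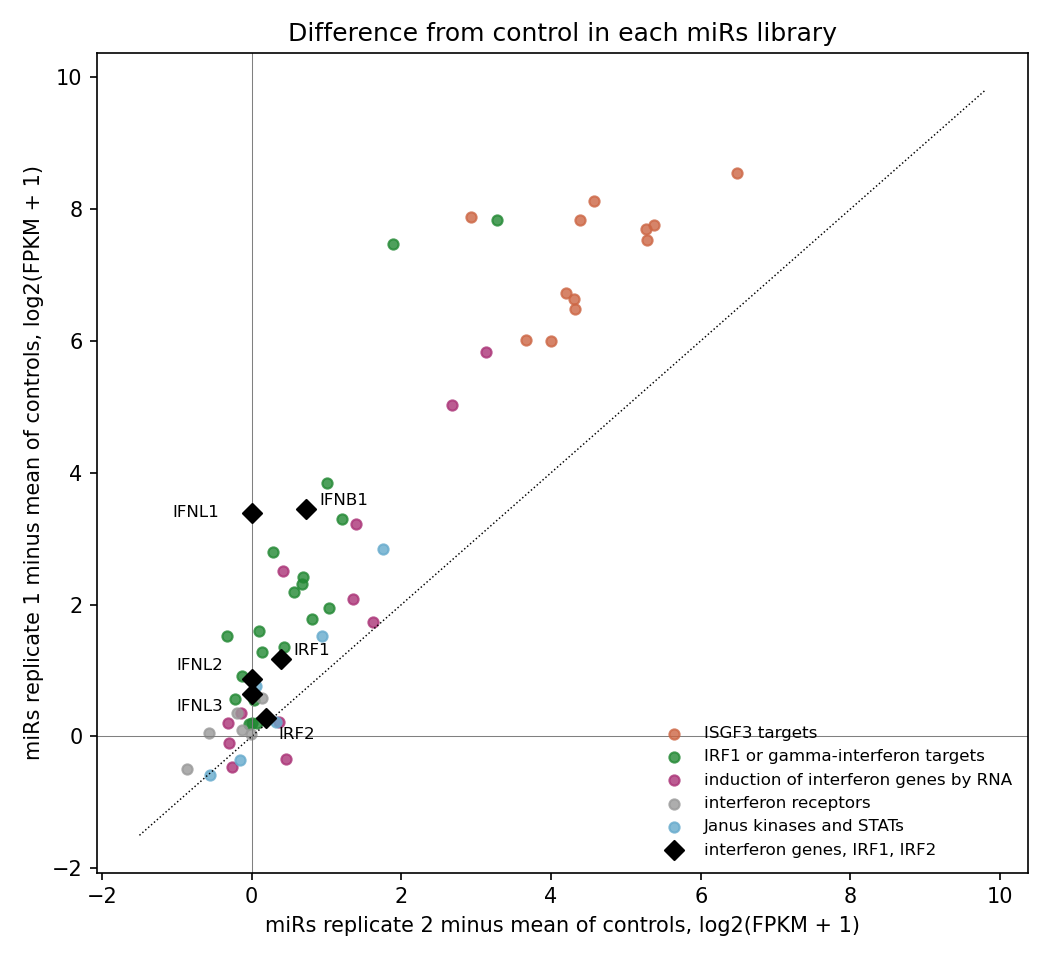
Difference from the mean of the controls in log2(FPKM + 1) for each gene of 5 lists (coloured points) and for the 6 genes described (black diamonds), with miRs replicate 2 on the x axis and miRs replicate 1 on the y axis. The dotted line marks equal differences. IFNB1 and IFNL1 lie near the y axis, high in replicate 1 and at 0.73 and 0 in replicate 2, while the ISGF3 targets lie far from 0 in both libraries.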

How the data were processed

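For each library the authors deposited a table of symbols and FPKM values, per the file headers. Tools listed in the submitters' processing notes, without roles, are Cuffdiff 2.2.1, SAMtools 0.1.18, Bowtie2 2.2.8 and TopHat2 2.1.1, and the build is hg19. Annotation, strand setting and library scaling are not stated there. The kit was TruSeq Stranded mRNA, per the labels' protocols. Tables were joined on symbol. A gene entered the test if its FPKM averaged 1 or more. limma 3.58.1 (R 4.3.3) was run on log2(FPKM + 1) with a variance trend, 2-sided, and p-values were adjusted by Benjamini-Hochberg over every tested gene (threshold 0.05). Differences are miRs minus control, and this scale understates changes of low genes. The limma and fragment-step scripts were tested on simulated data. Fragment steps were fitted in Python 3.11.15 with numpy 2.4.6 to genes with 1 GENCODE 29 transcript, as FPKM times length less 200 bases. Promoters came from RefSeq on GRCh38.p14, a build other than that of the files. In each pathway list the genes named were those with the 4 highest mean levels and those called. IFNAR1, IFNLR1, SOCS1, RSAD2, CCL5, ISG20, C5orf56, IRF5, IRF8 and single marker genes were added after their values were seen. The values of 2 genes that this rule names are not reported here. The members and lists were chosen with earlier results of these data known. Alternatives were another pseudocount, minimum or normalization, no trend, a replicate block and each library left out.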

Additional observations from a re-analysis of the deposited data

How the results depend on the processing

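None of the alternatives run reversed the direction of any of the 6 genes, although the lambda genes had no difference without miRs replicate 1. In every fit but the one without miRs replicate 2, 0 of the 6 genes passed (range 0 to 3 over the left-out libraries). In the fit without miRs replicate 2, 15.3% of all tested genes were called higher. That fit has a lone miRs library, through which alone IFNB1 and IFNL1 reached the minimum, so its count carries no weight. With 1 library left out in turn, the log2 difference ranged from 0.73 to 3.45 for IFNB1, 0 to 3.39 for IFNL1, 0 to 0.87 for IFNL2, 0 to 0.64 for IFNL3, 0.39 to 1.17 for IRF1 and 0.088 to 0.39 for IRF2, and that of the IRF1 to IRF2 ratio from 0.19 to 0.89. Over the limma fits that kept all 4 libraries, the adjusted p ranged from 0.140 to 0.346 for IFNB1 and from 0.132 to 0.285 for IRF1. A pseudocount of 0.1 gave 4.79 for IFNB1 (adjusted p = 0.140 in limma, unadjusted p = 0.0207), 3.29 for IFNL1, 1.61 for IFNL2 and 1.36 for IFNL3, as a smaller constant widens the distance from 0. The count of called genes was 29, and it was 0 with no minimum FPKM (3338 at an unadjusted p under 0.05), 6 with quantile normalization and 0 to 3746 with a library left out. The cause was not tested. With the replicate number as a block it was 99, none of them among the 6 genes. Same-numbered libraries share only a number, and their deviations correlated at 0.20 across genes. With a minimum of 5 FPKM, IFNB1 and IFNL1 were not testable. The 5.15 fragments behind IFNB1 in miRs replicate 2 and the 4.07 to 6.04 behind IFNL2 and IFNL3 limit what their levels can show.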

Other observations

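The keratin genes KRT8, KRT18 and KRT19 were higher in miRs replicate 2, and KRT17, which is not on the epithelial list, was higher in miRs replicate 1, at 12.2 against 0.676 FPKM. KRT18 was at 137 FPKM in miRs replicate 1 and 194 FPKM in miRs replicate 2, KRT8 at 14.6 and 29.3 FPKM, and the epithelial adhesion molecule EPCAM at 1.07 and 1.61 FPKM. COL1A1 and COL1A2 also split the miRs libraries, at 1910 and 1240 FPKM in replicate 1 and at 4742 and 3111 FPKM in replicate 2.

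Of the 14 genes with a ratio between the miRs libraries at least that of IFNB1, 3 are described here. CXCL8, a neutrophil chemokine, was at 5.11 FPKM in miRs replicate 1 and 0.112 FPKM in miRs replicate 2, with 0.546 and 0.918 FPKM in control, so that the second library lay below both controls. MMP10, a stromelysin, was at 4.17 and 0.162 FPKM in miRs and at 1.69 and 0.277 FPKM in control, and KYNU, an enzyme of tryptophan breakdown, at 6.13 and 0.344 against 1.01 and 0.411 FPKM. These 3 genes come from a set selected for a large gap, were chosen after their values were seen, and were not tested for it.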
